A study of Mus musculus with 12 samples.

Results

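The genes described here are the ligands and receptors that steer growing axons and migrating cells: semaphorins with their plexin and neuropilin receptors, ephrins with Eph receptor kinases, Slits with Robo receptors, and netrins with Unc5 and Dcc. Members were protein-coding rows of the deposited table whose gene names begin with the names of these families. This selected 70 of 40597 loci, of which 46 averaged 1 FPKM or more across all 12 libraries and were tested among 14931 loci. FPKM is a fragment count scaled by transcript length and by sequencing depth, so levels of different genes can be set beside each other. Unc50 and Unc5cl match by name only and belong to no guidance family, and Epha5 is listed as 2 separate loci that both count as members. Nrp1 and Ntn3 were not selected, because their loci are joined to another gene and carry no gene type.

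RNA came from primary neurospheres, floating clusters of neural stem and progenitor cells, grown from hypothalamus taken at embryonic day 14.5 from C57Bl/6 mice. Passage 3 spheres were exposed for 4 hours to 100 nM dexamethasone, a synthetic glucocorticoid, or to ethanol as vehicle. There were 4 groups, male or female cultures with dexamethasone or vehicle, each with 3 libraries labelled as biological replicates. The labels do not say what a replicate was, so p-values measure the spread between these libraries.

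In each of these families a cue, secreted or held on a cell surface, binds a receptor on the responding cell and changes its cytoskeleton through small GTPases. Class 3 semaphorins are secreted and act through neuropilin and plexin complexes, while classes 4 to 6 span the membrane and bind plexins directly. A-type ephrins are anchored by lipid, B-type ephrins span the membrane, and both can signal back into the cell that carries them. In the embryonic brain these systems also position progenitors and migrating glial precursors.

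All 15 neural stem cell markers reached 1 FPKM, but only 4 of 16 hypothalamic genes did, and 3 of the 16 were at 0 in all libraries. Of other cell types, 8 of 15 neuronal, 10 of 12 oligodendrocyte lineage, 9 of 9 astrocytic, 2 of 10 endothelial, 2 of 10 mural and fibroblast and 0 of 10 microglial markers did. All 6 glucocorticoid response genes checked rose with dexamethasone, Fkbp5 from 20.3 ± 3.96 to 112.8 ± 24.3 FPKM (SD, n = 6; limma adjusted p = 1.98e-05). Xist RNA was at 136.3 to 328.3 FPKM in female libraries and at 3.04 and 14.1 FPKM in male vehicle library 2 and male dexamethasone library 2, against at most 0.0466 FPKM in the other male libraries. Loci without a gene name took 74.99% of all FPKM in male vehicle library 3 and 53.1% in male dexamethasone library 2, against 11.6% to 38.6% elsewhere. Results are therefore also given without these libraries where a call changed.

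None of the 70 members averaged 50 FPKM or more. The plexin gene Plxnb2, a receptor for class 4 semaphorins, led the guidance families at 33.6 FPKM over the 12 libraries, followed by Sema6d at 32.3, Sema3a at 25.4, Sema6a at 20.5 and Sema4b at 14.0 FPKM. Unc50, the name match, stood at 37.2 FPKM. In vehicle libraries Plxnb2 was at 34.9 ± 4.94 FPKM, Sema6d at 39.5 ± 10.8 and Sema3a at 29.6 ± 11.1 (SD, n = 6). These means ± SD overlapped, and differences in level between genes were not tested. The netrin gene Ntn1 led its family at 13.4 FPKM, Robo1 the Slit receptors at 11.2, and the receptor kinase gene Ephb2 the EphB family at 8.96 FPKM. Epha5 (5.54 FPKM), Efnb1 (4.63), Dcc (3.81), Efna3 (3.06), Slit1 (1.17) and Nrp2 (1.14) led the remaining families. All 5 EphB receptors and 8 of 9 plexins reached 1 FPKM, but only 2 of 7 secreted semaphorins, 5 of 10 EphA loci and 2 of 3 Slits did.

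**Figure D1:**
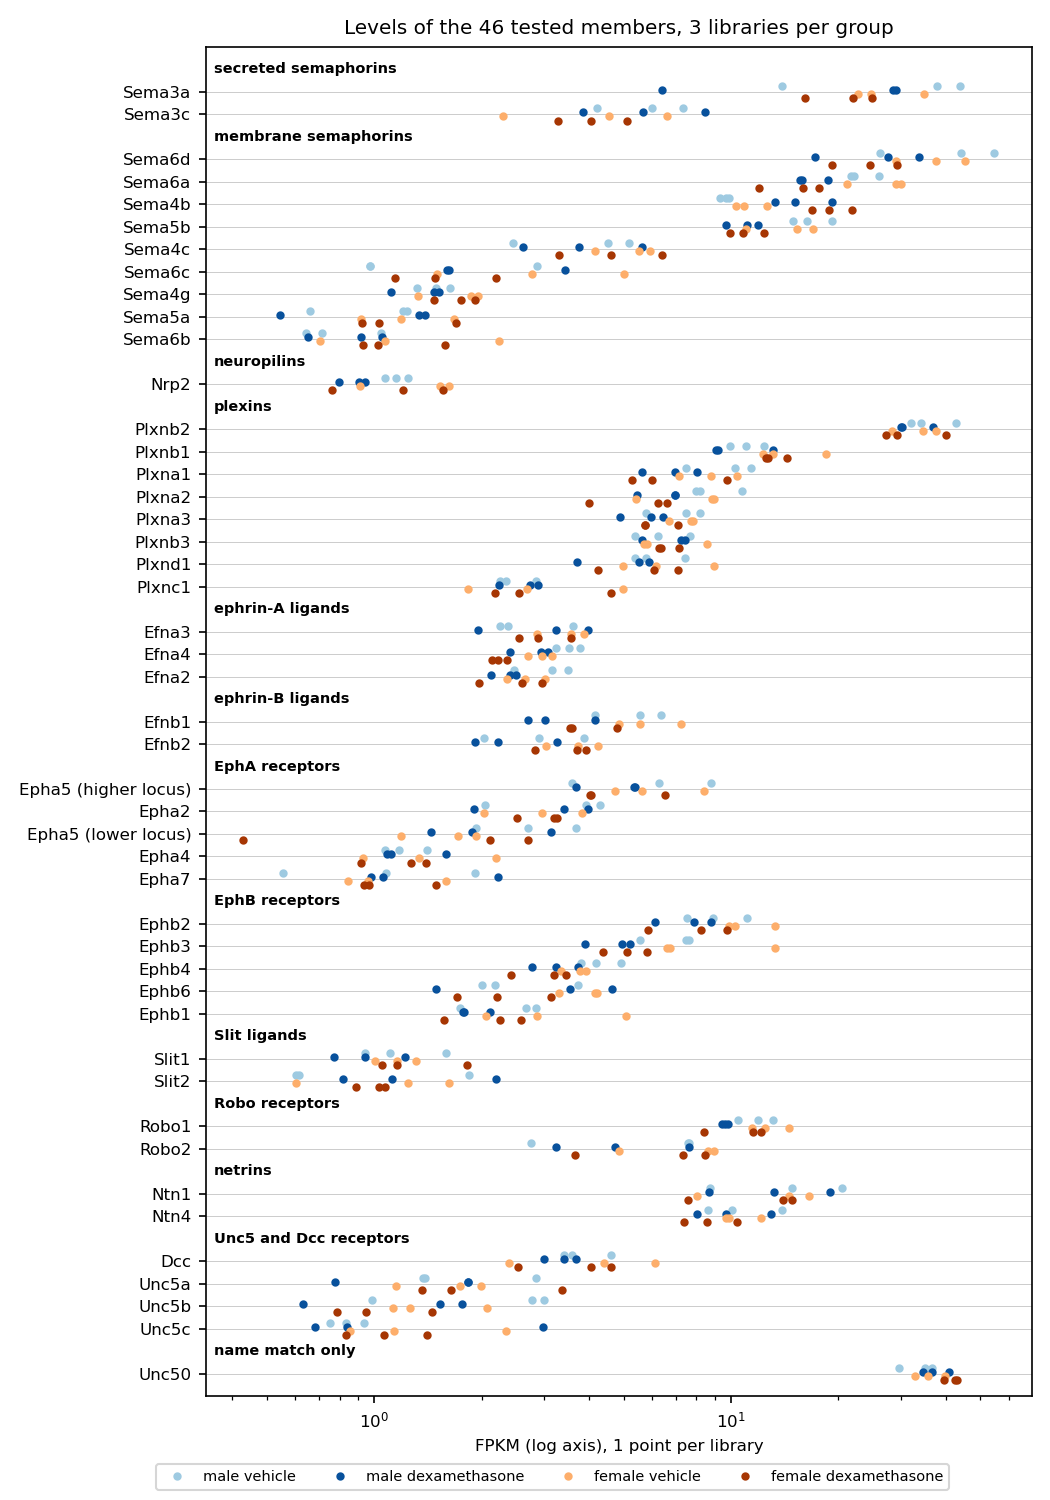
FPKM on a log axis for the 46 tested members, grouped by family, with 1 point per library and 1 colour per group of 3 libraries. Sema6d, Sema3a, Sema6a, Plxnb2 and Unc50 lie at the right, with means of 20.5 to 37.2 FPKM, and most points of a gene's 4 groups overlap.

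The spread over libraries differed between members. Sema3a ranged 6.85-fold, from 6.39 to 43.8 FPKM, and its lowest values were those of number 1 in each male group. Ntn1 ranged 2.70-fold and was lowest in the libraries numbered 1, at 7.56 to 8.72 FPKM against 13.2 to 20.4 FPKM in the other 8. Plxnb2 and Robo1 ranged only 1.58-fold and 1.73-fold.

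The comparison of dexamethasone with vehicle, averaged over the sexes, asks which guidance genes respond to 4 hours of glucocorticoid. Limma called 2 of 46 tested members, against 1.53% of all tested loci: Sema4b rose and Sema6a fell, both genes of membrane-spanning semaphorins, and 44 members did not pass the test. By direction 1.15% of all tested loci were called higher and 0.388% lower, so 1 member in each direction is too few to set against that background. The averaged change was below 0 for 38 of 46 members (82.6%), against 51.5% of all tested loci, and above 0 for 8, against 48.5%. The median change was -0.14 on the log2(FPKM + 1) scale for members and -0.01 over all tested loci. With quantile normalization 31 of 46 members lay below 0, against 51.0% of all loci, and without any 1 library 33 to 42 members did. With protein-coding sum scaling 41 of 46 members lay below 0, but so did 67.3% of all loci. In bulk RNA, fewer cells of a type and less RNA per cell cannot be told apart.

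Sema4b encodes a class 4 semaphorin with a single membrane span. Its values were 9.71, 9.29 and 9.87 FPKM in male vehicle libraries and 19.1, 13.3 and 15.1 in male dexamethasone libraries. In females they were 10.8, 12.6 and 10.4 FPKM with vehicle and 21.9, 16.8 and 18.8 with dexamethasone. Every dexamethasone library lay above every vehicle library, which held for 1 of 46 members and 1.41% of all tested loci. The mean went from 10.4 ± 1.18 to 17.5 ± 3.08 FPKM (SD, n = 6), 67.7% higher. The log2 change was 0.68 (SE 0.10, 95% interval 0.47 to 0.90, limma adjusted p = 0.00672). The call held without each library in turn (adjusted p = 0.00572 to 0.0265). The gene lies on chromosome 7 from 80186841 to 80226527 on GRCm38 and shares no exon with another annotated gene.

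Sema6a encodes a class 6 semaphorin, which binds A-type plexins and can itself act as a receptor. Its values were 21.7, 22.1 and 26.0 FPKM in male vehicle libraries and 18.7, 15.8 and 15.6 in male dexamethasone libraries. In females they were 21.1, 28.9 and 29.9 FPKM with vehicle and 15.9, 12.0 and 17.7 with dexamethasone. Every dexamethasone library lay below every vehicle library, as for 1 of 46 members and 0.804% of all tested loci. The mean went from 24.96 ± 3.87 to 16.0 ± 2.30 FPKM (SD, n = 6), a log2 change of -0.61 (SE 0.12, 95% interval -0.87 to -0.35, limma adjusted p = 0.0331). With 1 library left out, the call held only without male dexamethasone library 1, female vehicle library 1 or female dexamethasone library 3, and ended without any 1 of the other 9 libraries (adjusted p = 0.0604 to 0.0905) and with no filter on low loci (0.0535). Without both male libraries that held Xist RNA the change was -0.61 (adjusted p = 0.171), and without male vehicle library 3 and male dexamethasone library 2 it was -0.56 (0.188). The call also ended with replicate number within sex as a block (limma adjusted p = 0.0508). Sema6a lies on chromosome 18, from 47235598 to 47368870.

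**Figure D2:**
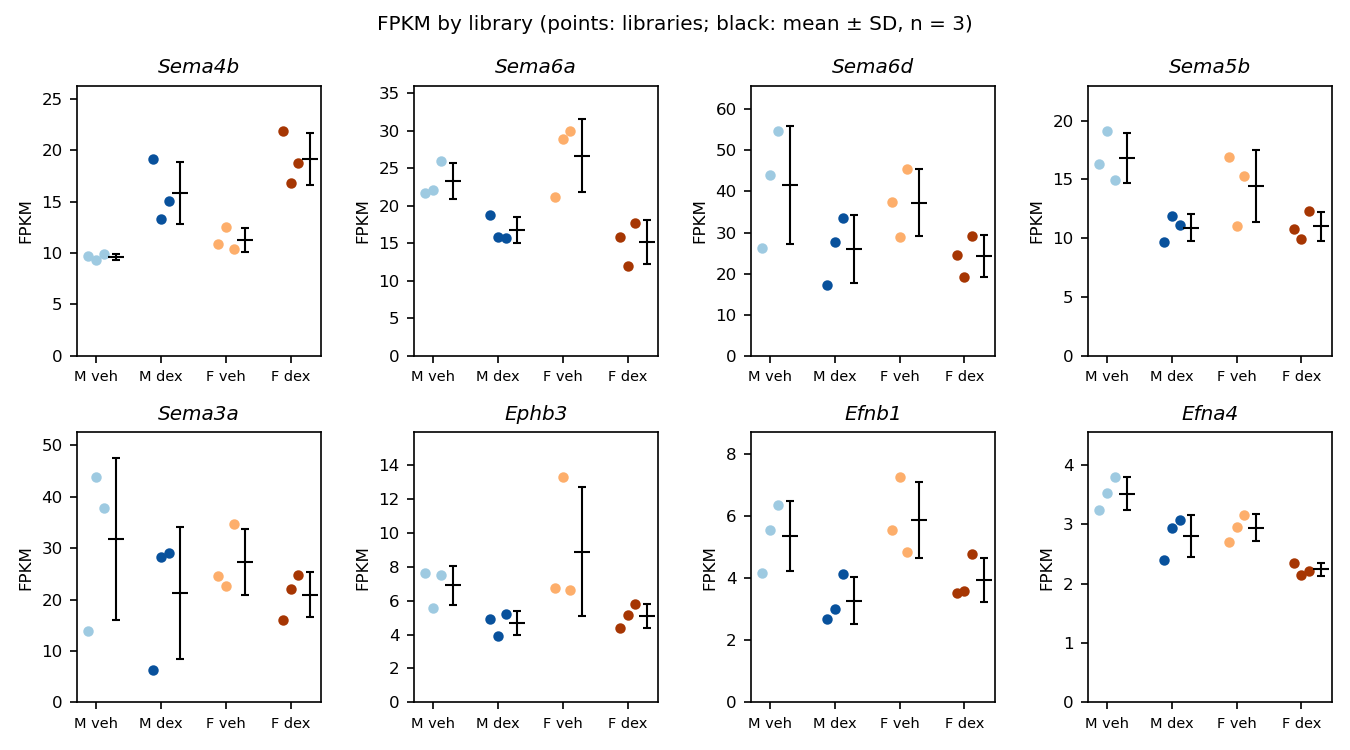
FPKM by library for 8 members (M male, F female, veh vehicle, dex dexamethasone), with points for libraries and black marks for the mean ± SD of 3. For Sema4b all 6 dexamethasone points lie above all 6 vehicle points, for Sema6a all lie below, and for Sema6d and Sema3a some vehicle and dexamethasone points overlap.

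The sequences upstream of Sema4b, the member called higher, and Sema6d, which was not called but had the lowest averaged change, are shown. Sema6a, the member called lower, had no window among those searched. They are from RefSeq on GRCm38.p6, read 5′ to 3′ from 250 bases before each annotated start, and end before the start or the first exon base in GENCODE M21. Capitals mark TGTTCT or AGAACA, 6-base matches to one side of the glucocorticoid receptor's binding element.
Sema4b, start 1 (chr7:80186620-80186840, plus strand): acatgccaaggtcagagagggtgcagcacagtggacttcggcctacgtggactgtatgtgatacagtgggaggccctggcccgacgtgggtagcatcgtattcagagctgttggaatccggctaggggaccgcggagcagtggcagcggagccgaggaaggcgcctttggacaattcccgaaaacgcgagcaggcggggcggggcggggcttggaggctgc
Sema4b, start 2 (chr7:80198338-80198440, plus strand): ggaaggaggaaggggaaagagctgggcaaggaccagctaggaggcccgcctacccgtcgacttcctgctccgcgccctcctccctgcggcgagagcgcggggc
Sema6d, start 1 (chr2:124089719-124089968, plus strand): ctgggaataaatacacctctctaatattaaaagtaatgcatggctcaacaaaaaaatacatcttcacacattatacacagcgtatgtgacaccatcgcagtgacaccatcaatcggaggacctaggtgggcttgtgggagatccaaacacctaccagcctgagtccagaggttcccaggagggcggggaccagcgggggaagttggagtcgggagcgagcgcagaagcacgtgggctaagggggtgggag
Sema6d, start 2 (chr2:124653331-124653580, plus strand): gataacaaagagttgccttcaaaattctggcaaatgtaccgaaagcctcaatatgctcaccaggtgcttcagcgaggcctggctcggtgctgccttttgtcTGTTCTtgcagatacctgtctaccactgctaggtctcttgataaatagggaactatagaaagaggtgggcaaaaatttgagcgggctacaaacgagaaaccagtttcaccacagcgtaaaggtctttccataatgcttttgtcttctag
Neither Sema4b sequence holds AGAACA or TGTTCT, and the second Sema6d sequence holds TGTTCT once. The 250 bases before the start held one of these words on either strand in 16.1% of 32851 windows of all genes and in 5 of 50 windows of the 40 tested members that had one. The whole element, AGAACA and TGTTCT with 3 bases between them, was in 3 of the 32851 windows and in none of the members' windows. These matches describe letters in a short window and say nothing about binding.

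The other membrane semaphorins gave no call when replicate numbers were not used as a block. Sema6d, like Sema6a a class 6 semaphorin, had the lowest averaged change of all members, -0.62 (SE 0.22, adjusted p = 0.266). It stood at 26.1, 44.0 and 54.7 FPKM in male vehicle libraries against 17.2, 27.6 and 33.5 with dexamethasone, and at 37.5, 29.0 and 45.4 against 24.6, 19.1 and 29.1 in females. The groups overlapped in both sexes, in females only through 1 dexamethasone library at 29.1 and 1 vehicle library at 29.0 FPKM. Yet every Sema6d dexamethasone library lay below the vehicle library of the same number and sex. With replicate number within sex as a block, Sema6d was called (SE 0.032, limma adjusted p = 0.00157). The labels do not say that same-numbered libraries share a culture. Sema5b, whose protein carries thrombospondin repeats, went from 15.6 ± 2.68 to 11.0 ± 1.06 FPKM (SD, n = 6; change -0.46, SE 0.11, adjusted p = 0.0904). Without female vehicle library 2, which at 11.0 FPKM was the lowest vehicle library, Sema5b was called (-0.55, adjusted p = 0.0242). Sema5b was also called with the replicate block (limma adjusted p = 0.0335). Sema6d lies on chromosome 2 from 124089969 to 124667770 and Sema5b on chromosome 16 from 35541145 to 35664732. Sema4c (4.51 FPKM), Sema6c (2.13), Sema4g (1.57), Sema5a (1.15) and Sema6b (1.05) had averaged changes between -0.12 and 0. The 95% interval of Sema4g reached from -0.28 to 0.21, whereas that of Sema6c ran from -0.72 to 0.48.

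Of the secreted semaphorins, Sema3a, a repellent for many axons, had an averaged change of -0.51 with a 95% interval of -1.40 to 0.37. It ran from -0.76 to -0.18 with 1 library left out, the latter without male dexamethasone library 1. Its 6 vehicle libraries ran from 13.9 to 43.8 FPKM and its 6 dexamethasone libraries from 6.39 to 29.1 FPKM. Sema3c went from 5.16 ± 1.84 to 5.07 ± 1.87 FPKM (SD, n = 6). The neuropilin gene Nrp2 went from 1.26 ± 0.27 to 1.03 ± 0.30 FPKM, a change of -0.16 (95% interval -0.46 to 0.15). The Nrp1 locus, joined to Mir1903 and outside the rule, held 5.26 to 26.8 FPKM with vehicle and 3.37 to 5.27 FPKM with dexamethasone (change -0.90, adjusted p = 0.216), the highest value being that of female vehicle library 3.

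Plexins, the receptors that carry the semaphorin signal into the cell, gave no call among 8 tested, against 1.53% of all tested loci. The 3 tested A-type plexins, which receive class 3 and class 6 semaphorins, had averaged changes of -0.41 (Plxna2), -0.37 (Plxna1) and -0.25 (Plxna3), with adjusted p between 0.290 and 0.351. Plxna2 went from 8.35 ± 1.74 to 6.03 ± 1.15 FPKM, Plxna1 from 9.22 ± 1.70 to 6.95 ± 1.71 and Plxna3 from 7.28 ± 0.89 to 5.98 ± 0.75 FPKM (SD, n = 6). Plxna2 was lower in every male dexamethasone library than in any male vehicle library, and its female groups overlapped. With replicate number within sex as a block, Plxna2 was called (limma adjusted p = 0.0235). The B-type genes Plxnb2 (change -0.11), Plxnb1 (-0.10) and Plxnb3 (0.03) differed less between treatments, with 95% intervals that reached from -0.38 at the lowest to 0.30 at the highest. B-type plexins are known receptors of class 4 semaphorins such as Sema4b. Plxnd1 (-0.21) and Plxnc1 (0.03) completed the family.

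In the ephrin system, none of 15 tested loci was called by limma, against 1.53% of all tested loci. The averaged change was below 0 for 14 of them, against 51.5% of all tested loci. All 5 EphB receptor kinases were below 0: Ephb3 (-0.55), Ephb2 (-0.35), Ephb1 (-0.32), Ephb4 (-0.27) and Ephb6 (-0.20). Ephb3 stood at 7.62, 5.57 and 7.49 FPKM in male vehicle libraries against 4.94, 3.90 and 5.22 with dexamethasone, and at 6.74, 13.2 and 6.63 against 4.37, 5.12 and 5.81 in females. In each sex every Ephb3 dexamethasone library lay below every vehicle library, yet the adjusted p was 0.184. Their ligand gene Efnb1, an X-linked ephrin of the membrane-spanning type, was apart in the same way. Its male libraries held 4.16, 5.57 and 6.37 FPKM with vehicle and 2.71, 3.01 and 4.15 with dexamethasone, and its female libraries 5.56, 7.26 and 4.87 against 3.53, 3.58 and 4.78 (change -0.52, SE 0.14, adjusted p = 0.120). Efna4, a lipid-anchored ephrin, was the third ephrin-system gene so separated, at 3.22 ± 0.39 with vehicle and 2.52 ± 0.39 FPKM with dexamethasone (SD, n = 6; change -0.27, adjusted p = 0.174), and its exons overlap a gene on the opposite strand. On GRCm38 Ephb3 lies on chromosome 16 from 21204755 to 21223305 and Efnb1 on chromosome X from 99136130 to 99148991. Together with Sema6a, these made 4 of 46 members whose dexamethasone libraries lay below the vehicle libraries within each sex, against 1.39% of all tested loci. Sema4b alone lay above in each sex, against 2.08%.

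EphA receptors and the other ephrins gave no call and did not separate by treatment within both sexes. The more abundant Epha5 locus went from 6.24 ± 2.04 to 4.84 ± 1.10 FPKM (SD, n = 6; change -0.28), and Epha2, Epha4 and Epha7 had changes of -0.03, -0.07 and 0.08. Both Epha5 loci carry the same identifier, and gene coordinates were taken from it. Where each locus lies within the gene or on which strand, and how their reads were divided, is therefore uncertain. Efna2 (-0.17), Efnb2 (-0.12) and Efna3 (-0.02) had 95% intervals that included 0.

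Among Slit receptors, Robo1 went from 12.3 ± 1.40 to 10.2 ± 1.41 FPKM (SD, n = 6; change -0.26, SE 0.10, adjusted p = 0.292) and Robo2 from 6.73 ± 2.43 to 5.83 ± 2.24 FPKM. The midline repellent genes Slit1 and Slit2 were near the filter, at 1.17 and 1.14 FPKM, with changes of -0.02 and 0.08. Netrin genes were more abundant. Ntn1, the classical midline attractant, went from 13.8 ± 4.73 to 12.9 ± 4.21 FPKM and Ntn4 from 10.7 ± 1.94 to 9.50 ± 2.01 FPKM (SD, n = 6). The netrin receptor genes Dcc (-0.14), Unc5b (-0.36), Unc5a (0.00) and Unc5c (0.07) were not called, and their 95% intervals spanned at least -0.46 to 0.13. The name match Unc50 had a change of 0.18 (adjusted p = 0.340).

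**Figure D3:**
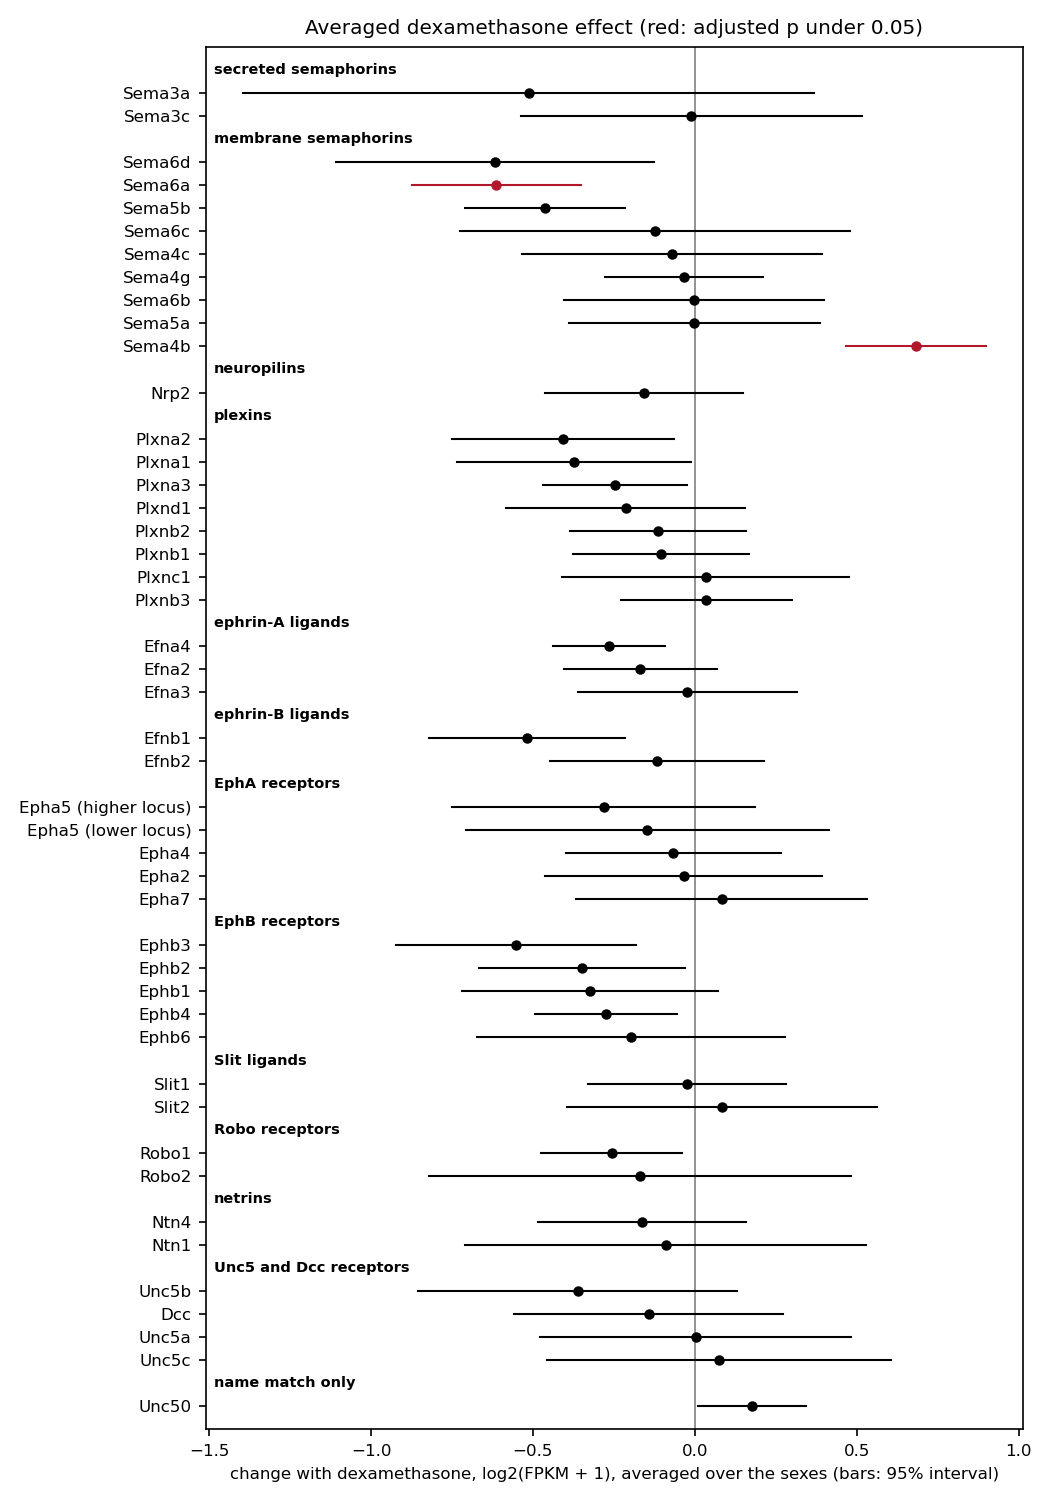
Averaged change with dexamethasone on the log2(FPKM + 1) scale for the 46 tested members by family, with 95% intervals. The 2 called members are red, Sema4b at 0.68 and Sema6a at -0.61, and 38 of 46 points lie left of 0, including all 5 EphB receptors.

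Before adjustment, 12 members lay below 0 and 2 above 0 with p under 0.05, against 6.74% and 6.86% of all tested loci. The 12 were Sema6a, Sema5b, Sema6d, Efnb1, Efna4, Ephb3, Ephb4, Ephb2, Robo1, Plxna2, Plxna3 and Plxna1. The 2 above 0 were Sema4b and Unc50. Apart from Sema6a and Sema4b, these genes did not pass the adjusted test.

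Some markers of neural stem cells and of the oligodendrocyte lineage also changed with treatment in these libraries. Of 15 stem cell markers 2 were called lower and none higher, against 0.388% and 1.15% of all tested loci. Msi1 went from 26.2 ± 3.43 to 16.5 ± 2.54 FPKM and Nr2e1 from 6.17 ± 0.98 to 3.85 ± 0.97 FPKM (SD, n = 6). With replicate number within sex as a block, 5 of the 15 were called lower and 0 higher, against 2.57% and 2.81% of all tested loci. The added genes were Nes, Sox2 and Sox9 (limma adjusted p = 0.0324, 0.0370 and 0.0430). The median change of the stem cell markers was -0.15. The summed level of the stem cell list ran from 6191 to 7564 FPKM in vehicle libraries and from 5924 to 7646 FPKM in dexamethasone libraries. Most of that sum was Fabp7 and Vim, with means of 3503 and 2497 FPKM, so it hardly reflects the other markers. Of 10 oligodendrocyte lineage genes 1 was called higher, against 1.15% of all tested loci: the proteoglycan gene Cspg4, from 12.3 ± 1.43 to 21.7 ± 3.29 FPKM. With the replicate block Cspg4 stayed called (limma adjusted p = 0.0187), and Nkx2-2 of the same list was called lower (0.0108). Neuronal markers summed to 343.6 to 494.4 FPKM with vehicle and 322.1 to 486.9 FPKM with dexamethasone, with a median change of -0.13 and no call. Map2 and Gap43, with means of 273.7 and 118.2 FPKM, made up most of the neuronal sum, so it does not measure neurons. Astrocytic markers summed to 430.7 to 2107 FPKM with vehicle and 487.5 to 1847 FPKM with dexamethasone, and microglial markers to at most 1.06 FPKM in any library. Apoe and Aldoc, with means of 615.2 and 400.7 FPKM, made up most of the astrocytic sum. With the replicate block Aldoc was called higher (limma adjusted p = 0.0338). The averaged change was below 0 for 12 of 15 stem cell and 5 of 8 neuronal markers. It was below 0 for 6 of 10 oligodendrocyte lineage and 5 of 9 astrocytic markers, against 51.5% of all tested loci. The part of these differences in the guidance genes' values was not tested.

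Within each sex the same changes were asked of 3 libraries against 3. Without a replicate block, limma called none of the 46 members in males or in females. Of all loci, 0.315% were called in males and 0.482% in females. At an unadjusted p under 0.05, 6 members passed in males and 6 in females, against 6.38% and 8.02% of all loci. Sema4b changed by 0.65 in males (SE 0.14, adjusted p = 0.122) and 0.72 in females (SE 0.14, 0.0667). The female change of Sema4b was called without male dexamethasone library 1 (adjusted p = 0.0303) and with array weights (0.0399). Sema6a changed by -0.45 in males (adjusted p = 0.610) and -0.77 in females (0.117). With replicate number within sex as a block, Sema6d alone was called, in males (limma adjusted p = 0.0104) and in females (0.0105). The shares of all loci called were then 0.991% and 1.25%. The changes of 28 members were below 0 in both sexes, against 36.1% of all tested loci, 5 were above 0 in both, against 33.2%, and 13 had opposite signs, against 27.9%.

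**Figure D4:**
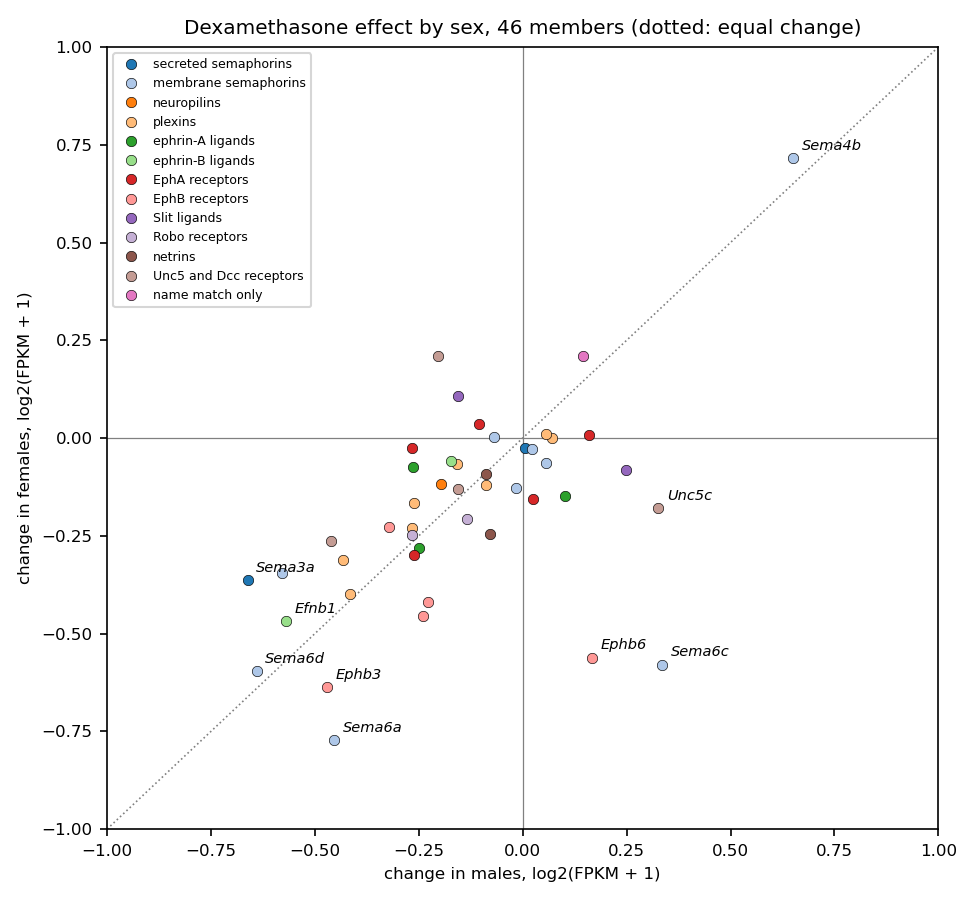
Dexamethasone change in males (x axis) and females (y axis) on the log2(FPKM + 1) scale for the 46 members, coloured by family. Sema4b stands alone at the upper right (0.65 and 0.72), 28 points lie in the lower left, and Sema6c and Ephb6 lie at the lower right.

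No member's response differed between the sexes in limma's interaction test, where 0.0335% of all loci were called and 0 members had an unadjusted p under 0.05, against 1.47% of loci. The largest interactions were those of Sema6c, with changes of 0.34 in males and -0.58 in females (difference -0.91, 95% interval -2.12 to 0.29), and of Ephb6, with 0.17 and -0.56 (difference -0.73, 95% interval -1.68 to 0.22). With 1 library left out these ran from -1.24 to -0.59 and from -1.07 to -0.48. Sema6c stood at 0.97, 0.97 and 2.86 FPKM in male vehicle libraries and at 1.62, 1.60 and 3.42 with dexamethasone. Its female libraries held 2.76, 5.02 and 1.498 FPKM with vehicle and 1.48, 2.19 and 1.14 with dexamethasone, so single libraries set much of the spread. Between untreated sexes limma called no member, with 0.0737% of all loci called and 0 members at an unadjusted p under 0.05, against 4.88% of loci. Sema6c (0.64, 95% interval -0.21 to 1.49) and the less abundant Epha5 locus (-0.51, 95% interval -1.30 to 0.28) had the largest female minus male differences under vehicle. That of Sema6c was 0.31 without female vehicle library 2 and 0.96 without male vehicle library 3. Under dexamethasone limma again called no member, against 0.067% of loci, 0 members had an unadjusted p under 0.05, against 2.94% of loci, and differences ran from -0.40 to 0.38.

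The 24 members below 1 FPKM were not tested, and the highest of them was Efnb3 at 0.59 FPKM. They comprise 5 secreted and 4 membrane semaphorins, 5 EphA receptors, Plxna4, Efna1, Efna5, Efnb3, Slit3, Ntn5, Robo3, Robo4, Unc5d and Unc5cl. Unc5cl is listed at 0 in all 12 libraries. Slit3 had a listed value of 0 in each of the 6 vehicle cultures and 0.397, 0.191 and 0.076 FPKM in male and 0.208, 0.315 and 0.303 FPKM in female dexamethasone libraries. Robo4, the endothelial member of its family, stood at 0.017, 0.015 and 0.038 FPKM in male vehicle libraries against 0.143, 0.083 and 0.079 with dexamethasone, and at 0.073, 0.031 and 0.013 against 0.228, 0.084 and 0.099 in females. Slit3 and Robo4 were singled out after their values were seen, since in both all dexamethasone libraries lay above all vehicle libraries, at levels where an exact 0 can be a failed estimate. Among the 12705 untested loci listed above 0 in some library, 0.417% were apart in this direction and 0.213% in the other, as were 2 and 0 of the 23 members among them.

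Partners of these families were followed through 2 further lists. Of 32 tested genes among 40 other guidance cues and surface receptors, 1 fell and none rose, against 0.388% and 1.15% of all tested loci. The gene that fell was Cxcr4, the chemokine receptor that steers migrating progenitors, from 7.07 ± 1.86 to 2.93 ± 0.28 FPKM (SD, n = 6; change -1.01, limma adjusted p = 0.00964). With replicate number within sex as a block, Vangl2 was called lower as well (limma adjusted p = 0.0465). The share of all tested loci called lower was then 2.57%. The list's median change was -0.15, with 25 of 32 genes below 0, against 51.5% of all tested loci. Of 54 tested cytoplasmic effectors, such as collapsin response mediators and exchange factors, 1 rose and none fell, against the same 1.15% and 0.388% of all tested loci. This was Vav2, an exchange factor that acts downstream of Eph receptors, from 4.88 ± 0.99 to 7.63 ± 1.02 FPKM (SD, n = 6; change 0.56, limma adjusted p = 0.0349). With the block 2 effectors were called higher and 2 lower, against 2.81% and 2.57% of all tested loci. The added genes were Pak1, higher (limma adjusted p = 0.0157), and Srgap2 and Rock2, lower (0.00754 and 0.0418). The median change of the effectors was -0.07, with 38 of 54 below 0, against 51.5% of all tested loci. The abundant effectors Cfl1, Cdc42 and Rac1 changed by 0.03, 0.13 and -0.07.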

How the data were processed

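The authors deposited 1 FPKM value per locus and library for 12 libraries. TopHat2 2.0.9, Cufflinks 2.2.1, Cuffdiff 2.2.1 and GRCm38 are named in the submitters' processing notes. The annotation, strand option and library scaling they used were not given in the sources used here. The 10 tested members that share exons with another gene in GENCODE M21 are therefore uncertain. Gene coordinates are from GENCODE M21, matched by Ensembl identifier for all 70 members. FPKM hold no counts; at low small-RNA and pseudogene loci the value of 1 fragment relative to male vehicle library 3 was 1 to 1.61, so relative depth differed by that much, and absolute depth is unknown.

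Tests used limma 3.58.1 (R 4.3.3) on log2 of FPKM plus a pseudocount of 1 (1 mean per group over 12 libraries, eBayes with a trend, two-sided, Benjamini-Hochberg over the 14931 loci that averaged 1 FPKM or more). Calls have an adjusted p under 0.05. Fold changes on this scale understate changes of low genes. The contrasts were the averaged, male and female dexamethasone effects, the interaction, and the sexes under each treatment. The code was tested on simulated data. The members, marker lists and partner lists were chosen with earlier results of these data known. Named members are those called, the 6 largest rises and 6 largest falls, the most abundant of each family, and the 2 largest interactions and sex differences. Alternatives were other pseudocounts, filters, scalings and limma settings, a replicate block, and leaving out each library. Leaving out pairs of libraries was added after seeing the data.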

Additional observations from a re-analysis of the deposited data

How the results depend on the processing

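Sema4b stayed called in the averaged effect under all 25 alternatives, with log2 changes of 0.61 to 0.75. With 1 library left out, 1 or 2 members were called in the averaged effect, 0 in males and 0 or 1 in females, and none in the interaction or between the sexes. Array weights gave 4 averaged calls (Efnb1, Sema4b, Sema5b and Sema6a; 2.3% of all loci) and 1 in females (Sema4b; 0.616% of all loci). Leaving out both male libraries numbered 2, or male vehicle library 3 with male dexamethasone library 2, gave 1. With a mean of at least 5 FPKM, fewer genes were tested and 18 of 21 members lay below 0.

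The labels do not say that same-numbered libraries share a culture. Deviations from the group means of same-numbered vehicle and dexamethasone libraries of a sex correlated at 0.0819 to 0.167, and each correlated best with its own number. With replicate number as a block, the SE of the averaged change went from 0.277 to 0.047 for Ntn1 and from 0.395 to 0.110 for Sema3a. That of Sema6a went from 0.117 to 0.120. With the replicate number within sex as a block, 4 members were called in the averaged effect (Sema4b, Sema6d, Sema5b and Plxna2; 5.38% of all loci), 1 in males and 1 in females (both Sema6d; 0.991% and 1.25% of all loci). The averaged adjusted p was then 0.00157 for Sema6d, 0.0335 for Sema5b, 0.0235 for Plxna2 and 0.0508 for Sema6a.

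Small positive changes turned negative in places: Plxnb3 with protein-coding sum scaling (-0.037) and Slit2 with array weights (-0.019). With 1 library left out Epha7 ran from -0.029 to 0.20, Plxnb3 from -0.017 to 0.12, Slit2 from -0.034 to 0.22 and Unc5c from -0.12 to 0.20. The causes were not tested. FPKM values carry no counts, so how far depth limits the low members is unknown.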
